A study of Mus musculus with 6 samples.

Results

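The genes of the nuclear factor κB (NF-κB) subunits and of their feedback inhibitors were followed in blood neutrophils of tumour-bearing mice. They are 10 genes, chosen by symbol for their role: the subunit genes Nfkb1, Nfkb2, Rel, Rela and Relb, and the inhibitor genes Nfkbia, Nfkbie, Nfkbiz, Tnfaip3 and Tnip1. They were taken from 35853 genes with summed transcripts, and all 10 passed the filter on low counts that kept 11406 genes for testing. RNA sequencing libraries of Ly6C-high and of Ly6C-low cells, 3 of each, were compared, and every sample came from wild-type BALB/c mice with an orthotopic 4T1 tumour, a mouse mammary carcinoma line, 4 weeks after implantation. Cells carrying the neutrophil surface protein Ly6G were sorted from blood by the amount of the surface protein Ly6C, and both groups came from tumour-bearing animals. Nothing in the labels ties a library to its own mouse or pool, and the p-values therefore measure only how much these libraries spread, which may be technical.

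NF-κB proteins bind DNA as pairs of subunits. In resting cells IκB proteins hold these pairs in the cytoplasm, and signals from Toll-like, interleukin-1 or tumour necrosis factor receptors lead to the breakdown of IκB and to entry of the pairs into the nucleus. In neutrophils the pathway drives cytokine and survival genes, and it also induces the genes of its own inhibitors, which end the response.

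Transcript levels of the 10 genes were close in the Ly6C-high and the Ly6C-low cells. The log2 fold changes, Ly6C-high over Ly6C-low, lay between -0.12 for Relb and 0.20 for Nfkbiz, and the median of the 10 was 0.04, against a median of 0.00 over all genes tested. With edgeR's quasi-likelihood test and Benjamini-Hochberg adjustment over all genes tested, 0 of the 10 passed an adjusted p of 0.05, where 0.0351% of all genes did. At an unadjusted p under 0.05 there were also 0 of the 10, against 14.3% of all genes, and DESeq2 and limma voom called 0 of the 10, where they called 1.10% and 0.0263% of all genes. In 0 of the 10 did the libraries of the groups not overlap, where they did not overlap in 21.1% of all genes. Of the 10 log2 fold changes 7 lay above 0, but 4 did so when the libraries were scaled by their size alone. The 95% interval of the fold change lay within 1.5-fold in either direction for 9 of the 10 genes and for 53.3% of all genes tested (80.0% of those averaging at least 5 CPM, that is, counts scaled to the size of the library). Nfkbiz was the exception. In sorted bulk samples fewer cells of a type and less RNA per cell cannot be told apart.

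**Figure D1:**
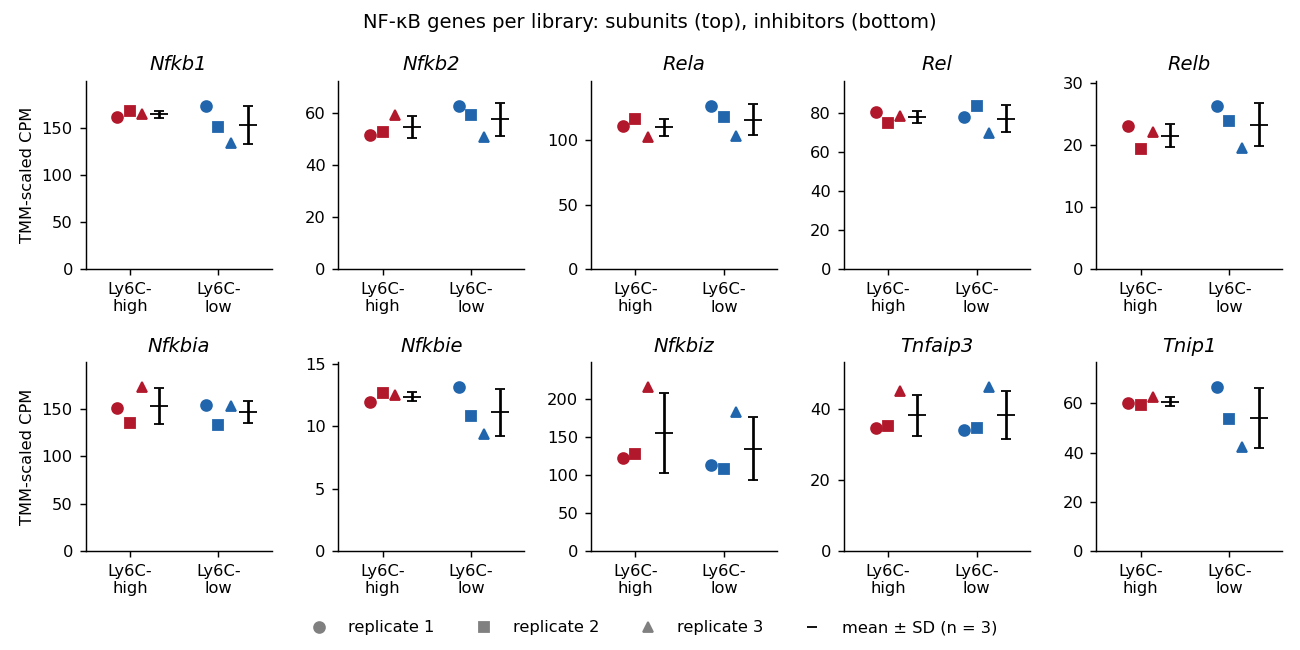
Normalised counts (TMM-scaled CPM, axes from 0) of the 10 genes in each library, Ly6C-high left and Ly6C-low right, with the mean ± SD of 3 libraries beside the points. The groups overlapped in all 10 genes, and Nfkbiz and Tnfaip3 were highest in the replicate 3 library of both groups.

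The promoters of these genes were searched for a sequence that was not itself read to choose them. The choice was still not independent of it, since the inhibitor genes were picked for feedback, in which NF-κB induces them. RefSeq promoters on build GRCm38.p6 were given for 7 of the 10 genes, all but Nfkb1, Relb and Nfkbiz, and the 250 bases before each start were searched on both strands for the degenerate κB consensus, the sequence that NF-κB pairs bind. A match was found for 6 of the 7 genes, in 8 of 10 promoters, against 3.9% of the 32851 promoters of all genes. These shares describe genes chosen for their role and are not a test. The promoters of the inhibitor genes Nfkbia, Tnfaip3 and Tnip1 and of the subunit gene Nfkb2 are printed because they show where the matches lie, and that of Rela because it had no match in this window. Capitals mark the matches, and each sequence runs 5′ to 3′ on the strand of its gene. They lie at chr12:55492648-55492897 (minus strand), chr10:19015411-19015660 (minus), chr11:54962941-54963190 (minus), chr19:46304487-46304736 (plus) and chr19:5637291-5637540 (plus), in the order printed.
Nfkbia: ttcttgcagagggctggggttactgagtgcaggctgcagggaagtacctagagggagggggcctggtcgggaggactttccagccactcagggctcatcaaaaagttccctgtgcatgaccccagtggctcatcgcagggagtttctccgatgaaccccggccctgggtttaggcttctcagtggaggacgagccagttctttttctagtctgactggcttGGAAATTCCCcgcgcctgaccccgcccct
Tnfaip3: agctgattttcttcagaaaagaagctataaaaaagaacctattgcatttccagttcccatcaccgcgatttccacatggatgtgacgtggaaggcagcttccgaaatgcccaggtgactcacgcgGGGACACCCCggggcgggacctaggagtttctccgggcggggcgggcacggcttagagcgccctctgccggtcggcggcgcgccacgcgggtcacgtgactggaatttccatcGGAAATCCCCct
Tnip1: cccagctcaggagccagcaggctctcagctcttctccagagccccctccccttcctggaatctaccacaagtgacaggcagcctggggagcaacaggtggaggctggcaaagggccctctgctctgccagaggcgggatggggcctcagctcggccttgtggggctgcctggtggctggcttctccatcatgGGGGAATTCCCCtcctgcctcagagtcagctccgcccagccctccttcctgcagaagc
Nfkb2: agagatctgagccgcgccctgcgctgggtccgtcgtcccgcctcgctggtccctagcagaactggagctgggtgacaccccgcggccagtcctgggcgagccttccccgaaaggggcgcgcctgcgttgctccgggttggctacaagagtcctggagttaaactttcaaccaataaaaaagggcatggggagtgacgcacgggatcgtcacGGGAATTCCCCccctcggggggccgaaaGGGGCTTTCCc
Rela: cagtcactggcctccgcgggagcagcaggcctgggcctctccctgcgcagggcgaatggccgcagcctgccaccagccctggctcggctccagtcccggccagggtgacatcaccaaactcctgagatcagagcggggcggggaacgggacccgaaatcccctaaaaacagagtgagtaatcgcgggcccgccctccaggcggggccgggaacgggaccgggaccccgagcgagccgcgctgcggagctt
The match in Nfkbia, GGAAATTCCC, starts 29 bases before the annotated start. The printed Tnfaip3 promoter has matches that start 125 and 12 bases before it, GGGACACCCC and GGAAATCCCC. Another Tnfaip3 promoter, at chr10:19011964-19012213, had 0 matches and is not printed. In Tnip1, 3 overlapping matches make up 1 run that reads the same on both strands. In the printed Nfkb2 promoter a pair of overlapping matches is followed by GGGGCTTTCC at 11 bases. Other Nfkb2 promoters, not printed, had 1 match each, at 236 and 225 bases. Rel holds GGGAAATCCC at 92 bases and Nfkbie GGGGGATTCC at 106 bases. A match describes these letters and is not evidence of binding in these cells.

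The libraries held between 17192372 and 20973623 estimated counts. Transcripts of the sorted surface protein followed the sort, with log2 fold changes of 3.07 for Ly6c1 and 2.90 for Ly6c2. The 12 neutrophil markers were abundant in every library, between 132869 and 141938 CPM in sum in the Ly6C-high and between 108487 and 125327 CPM in the Ly6C-low libraries, led by S100a9 and S100a8. Markers of other cells were low beside the neutrophil markers, but not all were low beside the NF-κB genes. The 10 NF-κB genes together summed to between 800 and 935 CPM in the Ly6C-high and between 775 and 847 CPM in the Ly6C-low libraries. The sums were 36.2 to 49.0 against 59.6 to 65.7 CPM for 8 eosinophil markers (most abundant Siglecf and Ccr3), 76.8 to 138 against 148 to 236 CPM for 8 basophil and mast cell markers (Kit and Mcpt8), and 359.96 to 366 against 364 to 439 CPM for 10 monocyte markers (Csf1r and Ccr2), Ly6C-high against Ly6C-low each time. The basophil and mast cell sum was mostly Kit. Kit had 2519, 1351 and 2003 estimated counts in the Ly6C-high and 4590, 2660 and 2146 in the Ly6C-low libraries. Each other marker of that list was highest in Ly6C-low replicate 3. Mcpt8 had 10, 15 and 14 estimated counts in the Ly6C-high and 42, 73 and 159 in the Ly6C-low libraries. The monocyte sum was mostly Csf1r, with a log2 fold change of -0.18. Of its 7 tested markers 5 lay above 0, with a median of 0.68, and 4 were higher and 0 lower at an unadjusted p under 0.05. They were Cx3cr1 at 2.46, Ms4a6c at 1.03, F13a1 at 0.79 and Ccr2 at 0.68, although 0 passed the adjusted threshold of edgeR. Some of these rested on few estimated counts. Cx3cr1 had 13, 25 and 13 in the Ly6C-high and 3, 3 and 3 in the Ly6C-low libraries. Ms4a6c had 38, 35 and 34 in the Ly6C-high and 17, 13 and 22 in the Ly6C-low libraries. At the same unadjusted threshold 3 of 5 tested eosinophil and 3 of 7 tested basophil and mast cell markers were lower, and 4 of 12 neutrophil markers were higher. Over all genes tested 6.92% were higher and 7.34% lower at that threshold. C1qa and C1qb, the complement genes of macrophages, had 0 counts in all 6 libraries. The sums were 3.77 to 6.56 against 2.99 to 5.34 CPM for 7 B cell markers (Cd79a and Ms4a1), 41.3 to 65.1 against 34.4 to 47.4 CPM for 10 T and NK cell markers (Cd3d and Cd8a), and 161 to 567 against 378 to 564 CPM for 8 platelet and erythroid markers (Hbb-bs and Hba-a1). The T and NK cell sum was mostly Cd3d, with between 632 and 1107 estimated counts per library, against between 12 and 29 for Cd8a. Of the 10 T and NK cell markers 8 averaged under 1 CPM. What these cells added to the levels of the NF-κB genes was not tested. On the first principal component Ly6C-low replicate 3 lay at 38.02 and the remaining libraries between -19.65 and 3.91.

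Among the subunit genes, Nfkb1 encodes the precursor of the small subunit of the classical NF-κB pair. It measured 161, 168 and 164 CPM in the Ly6C-high libraries, replicates 1 to 3, and 174, 151 and 134 CPM in the Ly6C-low libraries. The 3 Ly6C-high values lay inside the range of the Ly6C-low values. The log2 fold change was 0.11 ± 0.10 (SE; 95% interval -0.12 to 0.33; edgeR adjusted p 0.667). Rela encodes the subunit that carries the strong activation domain of the classical pair. It measured 110.4, 116 and 103 CPM in the Ly6C-high and 126, 117 and 103 CPM in the Ly6C-low libraries. The groups overlapped, with replicate 3 the lowest library of each, and the log2 fold change was -0.08 ± 0.10 (SE; -0.29 to 0.14; edgeR adjusted p 0.761). Rel encodes c-Rel, a subunit largely restricted to blood cells. It had the narrowest interval of the 10 genes, with 80.5, 74.8 and 78.2 CPM in the Ly6C-high and 77.7, 83.6 and 69.7 CPM in the Ly6C-low libraries. Its log2 fold change was 0.02 ± 0.09 (SE; -0.19 to 0.22; edgeR adjusted p 0.956), and its sign changed with the scaling.

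Nfkb2 and Relb encode the subunits of the alternative NF-κB pathway, in which the Nfkb2 precursor is cut to free a partner for RelB. Nfkb2 measured 51.4, 52.8 and 59.2 CPM in the Ly6C-high and 62.8, 59.0 and 50.6 CPM in the Ly6C-low libraries, for a log2 fold change of -0.08 ± 0.10 (SE; -0.31 to 0.15; edgeR adjusted p 0.777). The lowest of the 6 values was Ly6C-low replicate 3 and the highest Ly6C-low replicate 1. Nfkb2 overlaps the gene Psd on the opposite strand, and the counting is not stated to use strand, and Psd had a mean of 118 counts against between 955 and 1258 for Nfkb2. Relb was the lowest of the subunits in CPM, at 23.0, 19.4 and 22.0 CPM in the Ly6C-high and 26.3, 23.9 and 19.6 CPM in the Ly6C-low libraries. Its log2 fold change of -0.12 ± 0.13 (SE; -0.40 to 0.16; edgeR adjusted p 0.717) had the lowest value of the 10. Of the 5 subunit genes, Nfkb1, Nfkb2, Rel, Rela and Relb, each was lower in Ly6C-low replicate 3 than in the other 2 Ly6C-low libraries.

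**Figure D2:**
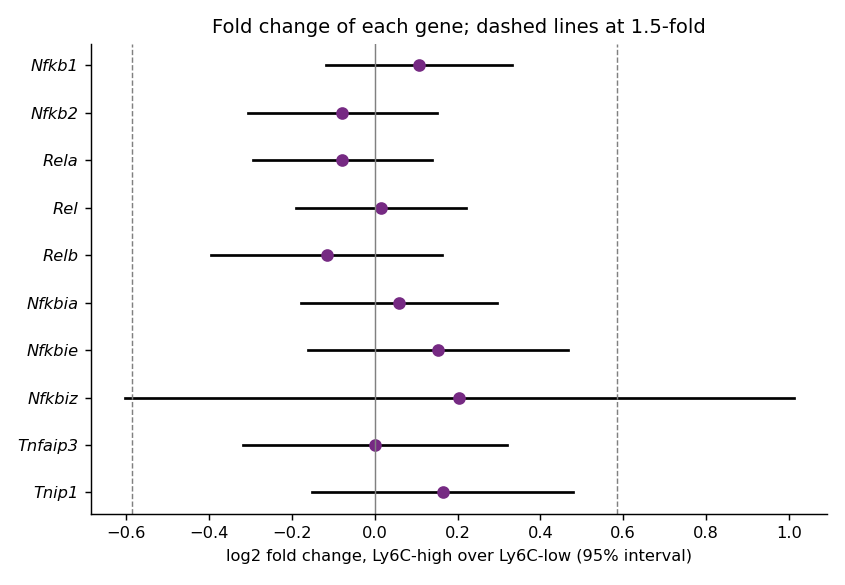
Log2 fold change of each gene, Ly6C-high over Ly6C-low (point), with its 95% interval (line), subunits above inhibitors. All 10 intervals span 0, and that of Nfkbiz alone passes the dashed lines at 1.5-fold, from -0.60 to 1.01.

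Among the inhibitor genes, Nfkbia and Nfkbie encode IκBα and IκBε, cytoplasmic inhibitors that NF-κB itself induces. Nfkbia measured 151, 135 and 173 CPM in the Ly6C-high and 154, 133 and 153 CPM in the Ly6C-low libraries. Replicate 2 was the lowest library in both groups. The log2 fold change was 0.06 ± 0.11 (SE; -0.18 to 0.29; edgeR adjusted p 0.842), and it was -0.05 with scaling by library size. Nfkbie was the least abundant of the 10 genes, with 226, 237 and 255 estimated counts in the Ly6C-high and 263, 207 and 176 in the Ly6C-low libraries, or 12.0, 12.6 and 12.5 against 13.1, 10.8 and 9.33 CPM. The Ly6C-high values were close together and lay inside the Ly6C-low range, and the log2 fold change was 0.15 ± 0.14 (SE; -0.16 to 0.47; edgeR adjusted p 0.661).

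Nfkbiz encodes IκBζ, an IκB protein of the nucleus that is induced by Toll-like and interleukin-1 receptors and that can activate as well as repress target genes. It varied most of the 10 genes, at 121, 127 and 215 CPM in the Ly6C-high and 112, 108 and 182 CPM in the Ly6C-low libraries. In each group the replicate 3 library lay far above the other 2, and these 2 libraries were above all other 4. The group means were 155 ± 52.5 and 134 ± 41.6 CPM (SD, n = 3 each), and the log2 fold change was 0.20 ± 0.32 (SE; -0.60 to 1.01; edgeR adjusted p 0.820). Leaving out Ly6C-high replicate 3 gave -0.11 and leaving out Ly6C-low replicate 3 gave 0.49, with edgeR adjusted p of 0.882 and 0.667. Each of these fits kept the high replicate 3 library of the other group. Of 17 alternatives 1, the omission of Ly6C-high replicate 3, changed the sign. Same-numbered differences in log2 CPM, Ly6C-high minus Ly6C-low, were 0.11, 0.23 and 0.24. Without both replicate 3 libraries, an alternative chosen after the data were examined, the log2 fold change was 0.17 (edgeR adjusted p 0.515).

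Tnfaip3 encodes A20, an enzyme that edits ubiquitin chains to stop signalling to NF-κB, and Tnip1 encodes ABIN1, a ubiquitin-binding partner of A20. Tnfaip3 measured 34.7, 35.0 and 44.9 CPM in the Ly6C-high and 34.0, 34.5 and 46.1 CPM in the Ly6C-low libraries. As with Nfkbiz, the replicate 3 libraries of both groups were the highest of the 6. The log2 fold change was 0.00 ± 0.14 (SE; -0.32 to 0.32; edgeR adjusted p 0.999). Its partner gene Tnip1 measured 60.1, 59.4 and 62.7 CPM in the Ly6C-high and 66.6, 53.6 and 42.3 CPM in the Ly6C-low libraries, for a log2 fold change of 0.16 ± 0.14 (SE; -0.15 to 0.48; edgeR adjusted p 0.636). Its Ly6C-low values spread over a wider range than its Ly6C-high values and enclosed them. The log2 fold change of Tnip1 was 0.34 without Ly6C-low replicate 1 and 0.02 without Ly6C-low replicate 3 (edgeR adjusted p 0.251 and 0.973).

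The 10 genes did not vary as 1 group over the libraries. Nfkbiz and Tnfaip3 varied together, with a Pearson correlation of log2 CPM of 0.957 over the 6 libraries, and Nfkbia correlated with them at 0.737 and 0.639. Nfkb1, Nfkbie and Tnip1 formed another set, with correlations between 0.977 and 0.998, and were lowest in Ly6C-low replicate 3. Rela ran against the first set, at -0.871 with Nfkbiz and -0.865 with Tnfaip3. These correlations describe 6 libraries that fall into 2 groups and share Ly6C-low replicate 3, which lay apart on the first principal component. Of the 10 genes 2, Nfkbiz and Tnfaip3, had both replicate 3 libraries above the other 4, where 10% of all genes tested did. This order was looked at after the values were seen, and the labels do not say that a replicate number marks a shared day or batch.

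**Figure D3:**
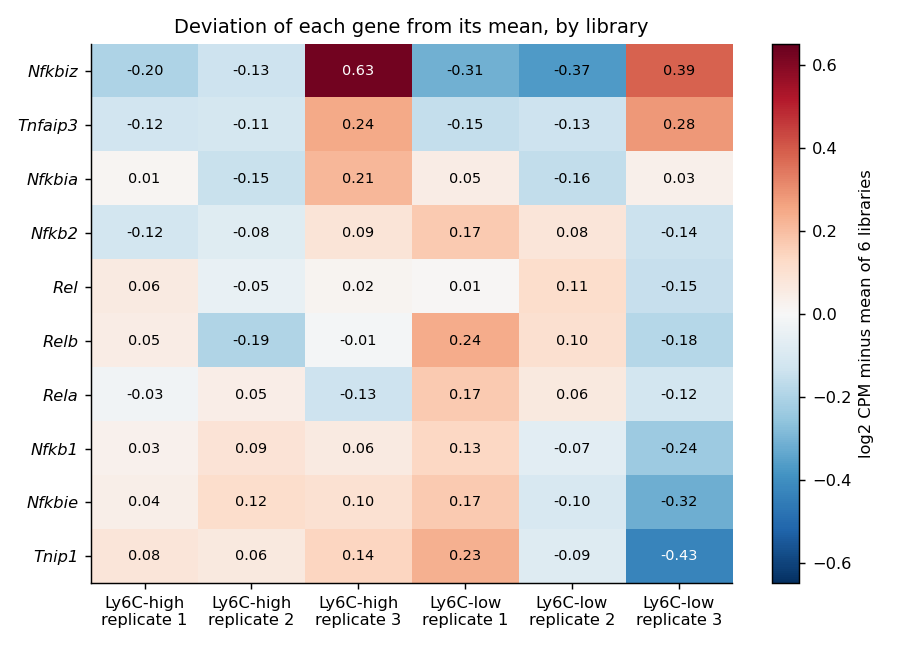
Deviation of log2 CPM from the mean of the 6 libraries for each gene (rows) in each library (columns, Ly6C-high left), red for higher and blue for lower. Nfkbiz reached 0.63 and 0.39 in the replicate 3 libraries, Ly6C-high and Ly6C-low, while Tnip1 was at -0.43 in Ly6C-low replicate 3.

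Outside the 10, the protein-coding genes averaging at least 20 CPM whose log2 CPM over the 6 libraries was most like the mean deviation of the 10 genes were Atp6v0a1, Otud5, Uba7, Ggt5 and Ezh1, out of 4695 genes compared. Their Pearson correlations were 0.969, 0.964, 0.962, 0.958 and 0.948. The mean deviation they followed was small, at -0.02, -0.04 and 0.13 in the Ly6C-high and 0.07, -0.06 and -0.09 in the Ly6C-low libraries. The genes were picked as the most alike of those compared, so the correlations are a description.

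Compared per length, in TPM (transcript abundance scaled for length and library size, the authors' values summed per gene), Nfkbia had the highest level of the 10 genes, at 127, 111 and 148 TPM in the Ly6C-high and 144, 112 and 144 TPM in the Ly6C-low libraries. It was above Rela in 6 of 6 libraries, with a mean 2.00 times as high. This order is that of sums over all transcripts, coding or not. Protein-coding transcripts held 86.2% of the TPM of Nfkbia, 61.2% of Rela and 77.9% of Nfkb1 in the Ly6C-high libraries. In the Ly6C-low libraries the shares were 85.5%, 63.2% and 76.3%. Rela, at 62.5 ± 4.71 against 68.5 ± 8.03 TPM, and Nfkb1, at 57.9 ± 1.58 against 59.4 ± 5.94 TPM (SD, n = 3 each, Ly6C-high against Ly6C-low), did not differ beyond their spread, and neither did Nfkb1 and Nfkbiz, at 46.9 ± 16.3 against 43.7 ± 14.5 TPM. Below them came Tnip1 at 27.7 ± 1.40 against 27.0 ± 4.56 TPM, Nfkb2 at 19.4 ± 0.980 against 21.5 ± 2.07 TPM and Relb at 14.6 ± 1.76 against 16.8 ± 1.58 TPM, each above the next in 6 of 6 libraries. Relb and Tnfaip3 (11.9 ± 2.20 against 11.6 ± 2.43 TPM) lay within the sum of their SDs, although Relb was higher in 6 of 6 libraries. Tnfaip3 and Rel (11.01 ± 0.316 against 11.7 ± 0.894 TPM) could not be ordered, with Tnfaip3 higher in 3 of 6 libraries. Nfkbie was lowest, at 5.55 ± 0.196 against 5.43 ± 0.825 TPM, under Rel in 6 of 6 libraries. The cytoplasmic inhibitors IκBα and IκBε thus stood at the ends of the order.

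**Figure D4:**
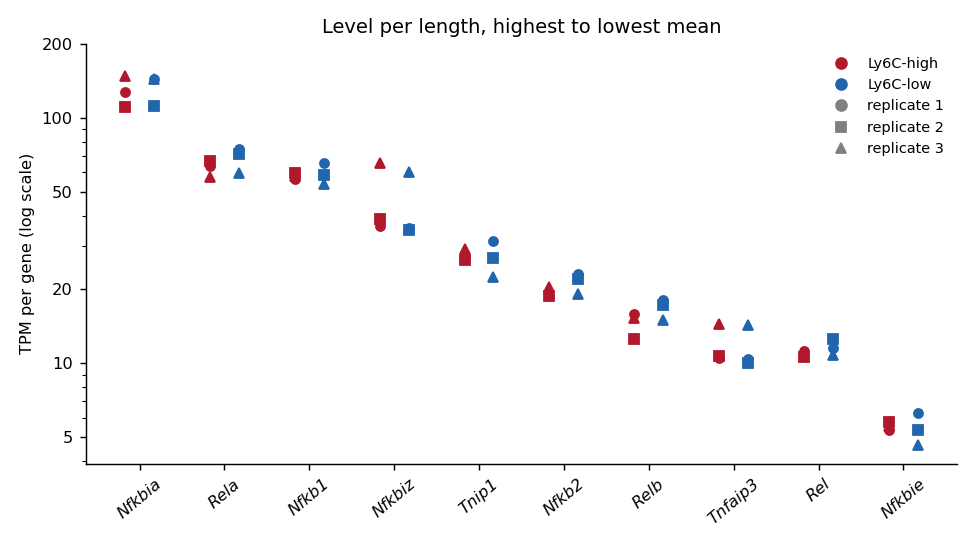
Level per length of each gene (TPM, log axis), ordered by the mean of the 6 libraries, Ly6C-high points left of Ly6C-low points. The order runs from Nfkbia, near 131 TPM on average, to Nfkbie, near 5.49 TPM.

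Ratios between the genes were computed per library from TPM summed over all transcripts of each gene. The Relb to Rela ratio, alternative over classical subunit, was 0.250, 0.189 and 0.267 in the Ly6C-high and 0.242, 0.242 and 0.253 in the Ly6C-low libraries. The Nfkb2 to Nfkb1 ratio was 0.333, 0.316 and 0.354 in the Ly6C-high and 0.352, 0.379 and 0.355 in the Ly6C-low libraries, and the groups overlapped through Ly6C-high replicate 3 and Ly6C-low replicate 1. The 5 inhibitor genes together over the 5 subunit genes together gave 1.249, 1.145 and 1.621 in the Ly6C-high and 1.18, 1.04 and 1.55 in the Ly6C-low libraries. All 3 ratios overlapped between the groups. The Relb to Rela ratio and the ratio of inhibitors to subunits were highest in the replicate 3 library of each group.

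Estimated counts and TPM were divided among up to 12 annotated transcripts per gene. Rel has 1 transcript in the tables, and 1 transcript held nearly all of Nfkbiz, with 99.5% ± 0.221 of its TPM (SD) in the 3 Ly6C-high and 99.3% ± 0.477 (SD) in the 3 Ly6C-low libraries. Transcripts that retain an intron took 32.3% ± 3.96 (SD) of the TPM of Rela in the 3 Ly6C-high and 28.4% ± 3.75 (SD) in the 3 Ly6C-low libraries, all in 1 transcript of 786 bases. As a share of its estimated counts, which are not scaled for length, this was 9.82% ± 1.46 in the Ly6C-high and 8.43% ± 1.43 in the Ly6C-low libraries. For Tnfaip3 the share of TPM was 24.3% ± 3.57 in the Ly6C-high and 24.0% ± 2.43 in the Ly6C-low libraries, and the share of estimated counts was 27.1% ± 7.63 in the Ly6C-high and 22.9% ± 5.59 in the Ly6C-low libraries. For Nfkb1 the share of TPM was 20.5% ± 1.501 in the Ly6C-high and 22.0% ± 6.56 in the Ly6C-low libraries, and the share of estimated counts was 17.02% ± 1.07 in the Ly6C-high and 18.8% ± 5.71 in the Ly6C-low libraries. Shares of the top transcript, the one with the highest mean TPM over the 6 libraries, were compared for the 10 genes. The tests were two-sided exact permutation tests, which cannot go below 0.1 with 3 against 3 libraries. The groups lay apart in Tnfaip3, whose transcript Tnfaip3-201 held 24.1%, 31.3% and 22.0% of its TPM in the Ly6C-high and 36.3%, 56.3% and 36.0% in the Ly6C-low libraries. The exact permutation p was 0.1, and 1.0 after Benjamini-Hochberg adjustment over the 10 genes. That transcript, of 4422 bases, and Tnfaip3-202, of 4334 bases, are close in length and were both annotated as protein-coding, and how reads are divided between such transcripts is uncertain. In the Ly6C-high libraries Tnfaip3-202 was the higher, at 2.91, 3.62 and 4.75 TPM against 2.54, 3.35 and 3.17 TPM for Tnfaip3-201. In the Ly6C-low libraries it was the lower, at 2.82, 1.89 and 3.79 TPM against 3.77, 5.62 and 5.18 TPM. The split among Relb transcripts varied between libraries, with Relb-202 at 36.1%, 0.568% and 30.3% in the Ly6C-high and 50.9%, 41.5% and 0.997% in the Ly6C-low libraries.

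Other genes of the pathway were read from the same test. Of 3 tested IκB genes outside the 10, Bcl3, a nuclear IκB protein, had a log2 fold change of 0.18 ± 0.11 (SE), Nfkbid, an IκB protein of the nucleus, one of -0.10 and Nfkbib, which encodes IκBβ, one of 0.03 (edgeR adjusted p 0.492, 0.847 and 0.921). Of 17 genes of the IκB kinase complex and of the kinases above it, 0 passed the adjusted threshold, 2 were higher and 0 lower at an unadjusted p under 0.05 (6.92% and 7.34% of all genes), and the median was -0.01. The smallest p values belonged to Map3k7, which encodes the kinase TAK1, at 0.22 ± 0.09 (SE; 38.7 ± 1.53 against 33.2 ± 0.780 CPM, SD, n = 3 each), Ikbkg, which encodes the regulatory subunit NEMO, at 0.22, and Irak4, a kinase of Toll-like receptor signalling, at 0.22. Adjusted p from edgeR was 0.302, 0.307 and 0.382 for these 3 genes.

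Of 20 adaptor and ubiquitin ligase genes, 0 passed the adjusted threshold, and the median was 0.01. At an unadjusted p under 0.05 there were 4 higher and 0 lower, where 6.92% of all genes were higher and 7.34% lower. Xiap, an inhibitor of caspases that also acts as a ubiquitin ligase, measured 233, 200.4 and 200.3 CPM in the Ly6C-high and 159.5, 184 and 141 CPM in the Ly6C-low libraries. The groups did not overlap, as in 21.1% of all genes, and the log2 fold change was 0.39 ± 0.11 (SE; edgeR adjusted p 0.209). Ticam2 and Tirap, adaptors of Toll-like receptors, had log2 fold changes of 0.60 and 0.23 (edgeR adjusted p 0.237 and 0.284). Of 15 tested genes of other brakes on the pathway, at an unadjusted p under 0.05 there was 1 higher and 2 lower, 0 passed the adjusted threshold and the median was 0.01. Tnip2, a relative of Tnip1, had a log2 fold change of -0.42 ± 0.15 (SE), Otulin, an enzyme that removes linear ubiquitin chains, one of -0.24 and Usp18, which removes the ubiquitin-like protein ISG15, one of 0.55 (edgeR adjusted p 0.268, 0.319 and 0.348).

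Of 40 genes listed here as targets of NF-κB 33 were tested, 0 passed the adjusted threshold, and the median was 0.03. Whether NF-κB drives these genes in these cells was not tested. At an unadjusted p under 0.05 there was 1 higher and 3 lower, where 6.92% of all genes were higher and 7.34% lower. Ninj1, which encodes the membrane protein ninjurin that ruptures the plasma membrane in lytic cell death, measured 35.7, 37.8 and 29.2 CPM in the Ly6C-high and 49.0, 53.2 and 66.4 CPM in the Ly6C-low libraries. All 3 Ly6C-low values were higher, and the log2 fold change was -0.71 ± 0.13 (SE; edgeR adjusted p 0.142). DESeq2 called 1 target. Icam1, an adhesion molecule, had a log2 fold change of -0.51 ± 0.16 (SE; edgeR adjusted p 0.221). Ccl3, a chemokine, measured 1.587, 1.5997 and 1.714 CPM in the Ly6C-high and 1.95, 2.67 and 5.83 CPM in the Ly6C-low libraries (log2 fold change -1.09, edgeR adjusted p 0.264), with Ly6C-low replicate 3 more than the sum of any other 2 libraries. Of the 33 targets, 9 had both replicate 3 libraries above the other 4, as Nfkbiz and Tnfaip3 did, against 10% of all genes tested. They were Il1b, Cxcl2, Ccl4, Bcl2a1b, Ier3, Gadd45b, Nfkbid, Map3k8 and Zc3h12a, chosen by that order. Of these, Nfkbid, Map3k8 and Zc3h12a also belong to the lists of IκB genes, kinases and other brakes, and Ier3 to the immediate early genes. Cxcl2, a chemokine for neutrophils, measured 80.1, 86.5 and 140.2 CPM in the Ly6C-high and 73.6, 50.9 and 166 CPM in the Ly6C-low libraries.

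The 20 immediate early genes, which are also induced when cells are handled, lay between 6829 and 12229 CPM in sum in the Ly6C-high and between 8119 and 14611 CPM in the Ly6C-low libraries, with replicate 1 the lowest library of each group. Their median log2 fold change was -0.22, with 17 of 20 below 0, where 5799 of all 11406 genes tested were, and 0 passed the adjusted threshold. With edgeR's unadjusted p under 0.05, 0 were higher and 1 lower, where 6.92% and 7.34% of all genes were. Jun, Jund and Dusp2 had the smallest p values, with log2 fold changes of -0.31, -0.16 and -0.77 (edgeR adjusted p 0.329, 0.538 and 0.539). Both replicate 3 libraries were above the other 4 in 6 of these 20 genes, against 10% of all genes tested. Whether handling contributed to the levels of Nfkbiz and Tnfaip3 was not tested.

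**Figure D5:**
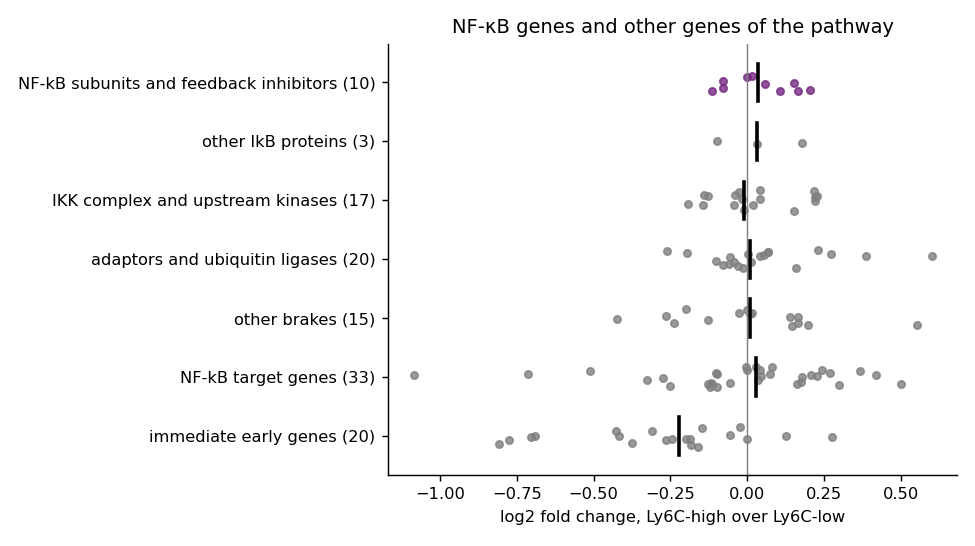
Log2 fold change, Ly6C-high over Ly6C-low, of each gene tested (points, spread vertically for sight) in the 10 NF-κB genes and in 6 other gene lists. The number tested is in brackets and the median is a bar. The last list holds immediate early genes, and some genes are shared between lists and drawn in each. The medians of the first 6 rows lie between -0.01 and 0.04, and that of the immediate early genes is -0.22.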

How the data were processed

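Libraries of messenger RNA captured by its poly(A) tail (input 100 ng, 13 PCR cycles, strand marked with dUTP) gave single-end reads with 75 cycles, according to the series' design text. The authors used kallisto and build GRCm39, per the submitters' processing notes. Its version, index and strand setting were not stated. Per the file headers, the deposited tables hold estimated counts, TPM and transcript lengths with effective lengths in bases (other columns), and 0 further columns of sample values. If strand was not used, reads of overlapping antisense genes cannot be told apart.

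Of 117486 transcripts 99.04% matched GENCODE M21 (build GRCm38, used for names, biotypes and overlaps), and unmatched ones were not used. Per gene, the authors' estimated counts were added up and rounded to whole numbers. edgeR 4.0.16 in R 4.3.3 was used with filterByExpr, TMM scaling, robust dispersions and group as the only term, at a Benjamini-Hochberg adjusted p of 0.05. The common biological coefficient of variation was 13.7%. Intervals are 95% and cover the spread between libraries; PCR copies were not removed. Log2 CPM used a prior count of 2. The step was tested on simulated counts of 11406 genes with 200 changed genes per run, and recovered 36.4% at 1.5-fold, 71.6% at 2-fold and 93.9% at 4-fold, with 8.45% of its calls false. Other tools were DESeq2 1.42.0, limma 3.58.1 and scipy 1.17.1.

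The 10 genes, the gene lists and the tests were chosen with earlier results of these data known. Genes were named by rule: the 10 genes, from each pathway list those past the threshold and the 3 with the smallest p, from each list of cell markers the 2 most abundant, and the 5 most like the 10 genes in pattern. The 9 targets high in both replicate 3 libraries, Psd, C1qa, C1qb, Cx3cr1, Ms4a6c, F13a1, Egr1, Ly6c1 and Ly6c2 are named outside that rule, after their values were seen. The alternatives were the replicate number as a block, other scalings, filters, tools and units, a fit to protein-coding genes, the omission of single libraries and, chosen after seeing the data, the omission of both replicate 3 libraries and shares of estimated counts for transcripts that retain an intron.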

Additional observations from a re-analysis of the deposited data

How the results depend on the processing

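None of the 17 alternatives called any of the 10 genes, and of their 170 alternative log2 fold changes 20 changed sign. The count of called genes over the whole table was 4. It was 8 with library size alone (which moved the median of all genes to -0.11), 439 with no filter on low counts, 126 with DESeq2, 2 with length-scaled TPM, 2 with limma-trend on log2(TPM + 1), and 2 to 22 with 1 library left out, 22 being without Ly6C-low replicate 3. Without both replicate 3 libraries, chosen after seeing the data, it was 32. Among pathway lists, 1 of 20 adaptor genes and 3 of 40 listed targets were called with no filter, where 439 of all 20580 genes tested were. DESeq2 called 1 target, against 126 of all 11406 genes tested. Without both replicate 3 libraries 1 target was called, against 32 of all 11299 genes tested. The cause of these differences was not tested.

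Deviations from the group means correlated at 0.24, -0.04 and 0.24 between same-numbered libraries, numbers 1 to 3. Between differently numbered libraries of the groups the correlations lay between -0.31 and 0.11. The labels do not say what the numbers mark, so the main fit did not use them as pairs. Whether same-numbered libraries share a source was not tested. With the replicate block 61 genes were called, 0 of the 10 among them. Of the 20 immediate early genes 10 were lower at an unadjusted p under 0.05 with the block, against 1 without it. Of all 11406 genes tested 1013 were lower at that threshold with the block, against 837 without it. Of the immediate early genes 1 was called, Egr1, with a log2 fold change of -0.70. Its edgeR adjusted p was 0.00935 with the block and 0.766 without it. Its same-numbered differences, Ly6C-high minus Ly6C-low, were -0.76, -0.59 and -0.76. With the block Nfkbiz had a log2 fold change of 0.20 ± 0.09 (SE; edgeR unadjusted p 0.0417, adjusted p 0.258). Its SE without the block was 0.32.

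With library size alone the log2 fold change was -0.0877 for Rel, -0.0484 for Nfkbia and -0.113 for Tnfaip3. On log2(TPM + 1) it was -0.0302 for Nfkb1, -0.0741 for Rel and -0.0496 for Nfkbia. For Tnfaip3 it was -0.0126 with no filter, -1e-04 with a mean count of at least 10 and -0.0028 with protein-coding genes alone. Without both replicate 3 libraries it was -0.0557 for Rel, -0.0112 for Nfkbia and -0.0102 for Tnip1. With 1 library left out it ranged between -0.0496 and 0.0778 for Rel, -0.0395 and 0.139 for Nfkbia, -0.11 and 0.49 for Nfkbiz, and -0.13 and 0.16 for Tnfaip3. Without a change of sign it ranged between 0.0227 and 0.205 for Nfkb1, -0.159 and -0.0139 for Nfkb2, -0.152 and -0.0135 for Rela, -0.224 and -0.0219 for Relb, 0.045 and 0.288 for Nfkbie, and 0.0155 and 0.337 for Tnip1; in each of these 6 genes the lowest value came without Ly6C-low replicate 3 and the highest without Ly6C-low replicate 1. The difference in the share of the top transcript, Ly6C-high minus Ly6C-low, ranged in percentage points between -1.94 and 3.88 for Nfkb1, -3.84 and 1.22 for Rela, -23.9 and 2.06 for Relb, -2.97 and 5.58 for Nfkbia, and -0.085 and 0.39 for Nfkbiz. For Rela it was 0.737 when estimated counts replaced TPM. Counts limit precision most for Nfkbie, which had between 176 and 263 estimated counts per library.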
